A study of Mus musculus with 14 samples.

Results

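The cytosolic ribosomal protein genes were taken by name from the 2 gene count tables of dorsal hippocampus. A gene was a member when its name was Rpl or Rps followed by a number, with or without a further letter or digit (a, x or y) and a final l, or when it was Rplp0, Rplp1, Rplp2 or Rpsa, and names ending in -ps were left out. The rule used names only, and no measured value. It found 82 genes, 49 of the large and 33 of the small ribosomal subunit, among 25933 genes listed in the learning table and 26570 in the basal table. After the filter on low counts, 80 members were tested in the basal table and 81 in the learning table. Rpl39l, with 0 to 13 counts per library, was tested in neither, and Rpl3l, with 4 to 12 counts per library, only in the learning table.

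The libraries came from the dorsal hippocampus of male C57BL6 mice aged 8 months. THY-Tau22 mice are heterozygous for a transgene in which the neuronal Thy1.2 promoter drives a mutated human Tau, and develop Tau pathology in the hippocampus, and WT mice lack it. The basal experiment compared untreated, untrained WT (WT basal, n = 3) with THY-Tau22 (THY-Tau22 basal, n = 2). In the learning experiment all mice were injected before they were trained in the Morris water maze, a test of spatial memory, or were left in the home cage: WT with saline in the home cage (WT VEH_HC, n = 3), WT with saline and training (WT VEH, n = 2), THY-Tau22 with the carrier CSP and training (TAU VEH, n = 2), and THY-Tau22 with CSP-TTK21, an activator of the acetyltransferases CBP and p300 bound to that carrier, and training (TAU MOL, n = 2). Trained WT received saline and trained THY-Tau22 the carrier, so genotype and carrier cannot be told apart, and 3 further learning libraries that the study excluded were not analysed here. Each library is taken as 1 mouse, as the study describes its samples.

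Every ribosome holds 1 copy of most of these proteins together with the ribosomal RNAs, so cells make them in matched amounts. Their mRNAs are abundant, short and stable, and begin with a 5′ terminal oligopyrimidine (TOP) tract, a C followed by a run of C and U, through which the kinase mTORC1 and the RNA-binding protein Larp1 control their translation. In neurons, new protein synthesis is needed for lasting synaptic change, and ribosomal protein mRNAs are found in dendrites as well as in the cell body.

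Start regions of the members were looked up by gene name in RefSeq for build GRCm38.p6, which listed 60 of the 82 genes with 72 start windows. A C at the start followed without a break by C or T, at least 5 bases in all, was present in 13 of the 72 windows (18.1%) and in 823 of all 32851 windows of the same length (2.51%). An unbroken run of at least 8 bases that are each C or T, anywhere within 50 bases on either side of the start, was present in 58 member windows (80.6%) and in 35.7% of all windows. Only the gene strand was read, and the first of these patterns can lie inside the second. Most listed starts of members thus lacked the first pattern, and whether the listed starts are those in use was not tested. Shown here are 8 members chosen because they have it, among those described in the following paragraphs, so that the tract can be seen. Each run is 10 bases before and 20 bases from the listed start, 5′ to 3′ on the gene strand, with the tract in capitals. Rps27l, the paralog of Rps27, has 2 listed starts, neither with a tract, as in most member windows, and the first is shown last.
Rps6 (chr4:86857348-86857377, minus strand): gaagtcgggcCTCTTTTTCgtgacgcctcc
Rps15a (chr7:118116128-118116157, minus strand): tttctgccatCTTCCCTCgccggtgagtga
Rps18 (chr17:33955646-33955675, minus strand): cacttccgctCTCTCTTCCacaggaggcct
Rps21 (chr2:180257369-180257398, plus strand): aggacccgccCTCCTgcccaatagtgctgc
Rps27 (chr3:90213629-90213658, minus strand): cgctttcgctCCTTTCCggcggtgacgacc
Rpl15 (chr14:18270967-18270996, minus strand): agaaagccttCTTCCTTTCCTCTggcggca
Rpl28 (chr7:4792955-4792984, plus strand): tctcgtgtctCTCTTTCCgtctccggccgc
Rplp2 (chr7:141447641-141447670, plus strand): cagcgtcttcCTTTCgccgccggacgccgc
Rps27l (chr9:66946076-66946105, plus strand): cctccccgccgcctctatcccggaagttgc

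The tables hold raw counts of uniquely aligned reads per gene, with 24693700 to 52180300 counts per learning library and 28639100 to 37681200 per basal library. Replicate libraries of a group differed by far more than counting noise, so none was a repeat of another. The 10 markers listed for hippocampal neurons summed to 11694 to 19925 CPM (counts relative to the library total, scaled with TMM factors) per library. Such a sum reflects neurons, and whether it marks the hippocampus was not tested. Markers of the choroid plexus, the secretory epithelium of the brain ventricles, stood apart: the 14 markers, none at 0 in any group, summed to 80.7 to 238 CPM in WT VEH_HC, 1582 to 2450 in WT VEH, 240 to 285 in TAU VEH and 714 to 778 in TAU MOL, and to 276 to 442 in WT basal and 403 to 1316 in THY-Tau22 basal. Libraries also differed in how counts followed GC content, with a Spearman rho across genes between the GC content and the deviation of a gene from its mean of 0.41 to 0.45 in WT VEH_HC, 0.08 to 0.28 in WT VEH, -0.62 to -0.41 in TAU VEH and -0.47 to -0.40 in TAU MOL, and of 0.48 and -0.60 in the 2 THY-Tau22 basal libraries. Neuron markers summed to 18617 to 18629 CPM in WT VEH, 17414 to 19925 in WT VEH_HC, 13722.5 to 14137 in TAU VEH and 13365 to 14397 in TAU MOL, and oligodendrocyte markers to 3915 to 7918 CPM in WT VEH_HC and 7509 to 7725 in WT VEH. In whole tissue, fewer cells of a type and less RNA per cell cannot be told apart.

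The members held 1.03% to 1.15% of all counts in WT basal, 1.02% and 0.90% in THY-Tau22 basal, 0.473% to 0.574% in WT VEH_HC, 0.634% and 0.628% in WT VEH, 0.604% and 0.648% in TAU VEH, whereas the libraries of TAU MOL had 0.625% and 0.667%. All 9 learning libraries lay below all 5 basal libraries, in tables that were made separately, so this difference between experiments was not tested. Within the learning table the 3 home-cage libraries were the lowest in this share, which is not scaled with TMM factors, and did not overlap with the 6 trained ones. With TMM scaling they did overlap. The median log2 deviation of the members from their mean was 0.05 in WT VEH_HC replicate 3. That was above TAU VEH replicates 1 and 2 (-0.02 and 0.04) and TAU MOL replicate 1 (0.02). The large subunit took 1.36 to 1.41 times the counts of the small subunit in the basal libraries and 1.44 to 1.5 times in the learning libraries, a ratio that moved little while the total share moved.

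**Figure D1:**
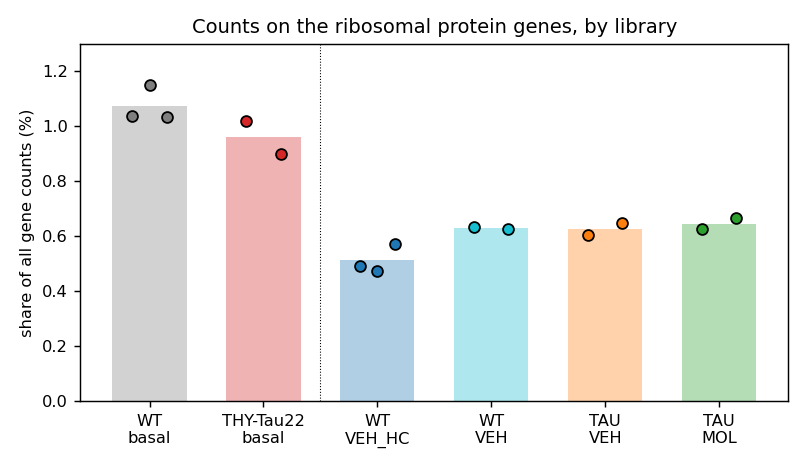
Share of all gene counts, in percent, that fell on the 82 ribosomal protein genes, with 1 point per library and bars at the group means, and a dotted line between the basal and the learning experiment. In this share, which is not scaled with TMM factors, the 3 WT VEH_HC libraries (0.473% to 0.574%) lie below the 6 trained libraries (0.604% to 0.667%).

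Levels of single members, in CPM per kilobase of transcript averaged over the libraries of a table, spread widely although the proteins are made in matched amounts. The median was 146.8 CPM per kilobase over 79 members in the basal table and 79.7 over 80 in the learning table, and the 90th percentile was 4.37 and 5.68 times the 10th. The highest in the learning table were Rplp1 at 563, an acidic protein of the stalk that recruits elongation factors and that is present in more than 1 copy per ribosome, Rps29 at 332 and Rps21 at 297, both short small-subunit proteins. The lowest among the tested members were Rpl3l at 0.161, the paralog of Rpl3 known from striated muscle, Rps27l at 10.5 and Rps4y2 at 16.4. The order of the members was almost the same in both tables, with a Spearman rho of mean CPM of 0.98 over 80 members, which share transcript length and sequence between tables. Rps20, Rpl5 and Rps15a were also low per kilobase (19.7, 20.5 and 21.1 in the learning table), with long annotated transcripts of 3706, 2045 and 3721 bases, against a median of 710 over the members.

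Ribosomal protein genes have many processed copies in the mouse genome, so reads can be hard to place. Of the 50-base stretches of each member transcript, matching the read length, a median of 65.05% occurred letter for letter elsewhere in the mm9 genome. For 13 of the 81 members with an annotated transcript it was at least 90%, up to 99.7% for Rps27. Rps27 still had 1280 to 2394 counts per learning library, and the level per kilobase hardly followed the copied share, with a Spearman rho of 0.07 over 80 members in the learning table and 0.01 over 79 in the basal table. How the reads of such stretches were placed was not tested, and levels and changes of members with many copies are uncertain for that reason. The libraries were not stranded, and 14 members overlap a gene on the opposite strand whose reads cannot be told apart from theirs, among them Rpl15 (Nkiras1), Rpl5 (Fam69a), Rpl18 (Sphk2) and Rps28 (Kank3). A further 2 overlap a gene on the same strand, Rpl13a (Flt3l) and Rpl19 (Gm11629).

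**Figure D2:**
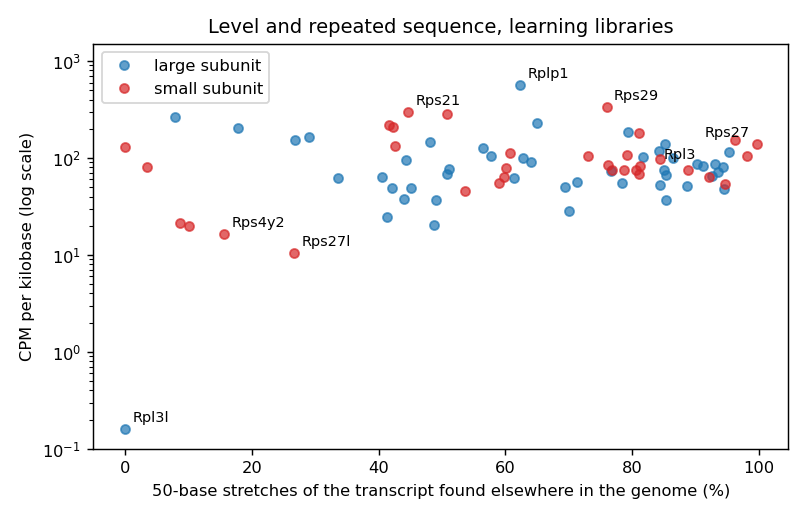
Level of each tested member in the learning libraries, in CPM per kilobase of transcript on a log scale, against the percent of its 50-base stretches found elsewhere in the genome, with large-subunit genes in blue and small-subunit genes in red. Rplp1 lies highest at 563, Rpl3l lowest at 0.161, and members with nearly all stretches copied, such as Rps27, lie amid the others.

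Untrained THY-Tau22 mice were compared with untrained WT to see what the transgene changes at rest. No ribosomal protein gene passed the test (edgeR quasi-likelihood test with Benjamini-Hochberg adjustment over 16324 genes, adjusted p under 0.05 and a log2 fold change beyond 0.2), in a comparison in which 0.00613% of all genes were called higher and 0.0184% lower. Yet 79 of the 80 members had a negative log2 fold change, with a median of -0.15 against -0.01 for all genes. At an unadjusted p under 0.05, 2 members were lower and 0 higher by edgeR, against 803 of all 16324 genes in either direction. DESeq2 also called none of the members. The THY-Tau22 libraries lay below all WT libraries for 18 of 80 members, against 9.49% of all genes.

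Rplp1 had the lowest log2 fold change (-0.45 ± 0.25, SE, adjusted p = 0.901 by edgeR). Its level was 647, 547 and 489.8 CPM in WT basal and 548 and 275 CPM in THY-Tau22 basal, so only 1 THY-Tau22 library lay below the WT range. Rps14, a protein of the small subunit near the site where mRNA leaves, was 394.1, 363.8 and 334.5 CPM in WT basal and 333.9 and 210.1 CPM in THY-Tau22 basal, without overlap but with 1 library at the edge (-0.42 ± 0.18, adjusted p = 0.901). At the other end stood Rpl15 (0.02 ± 0.12) and Rps15a (-0.00 ± 0.12). The shift of the members rested largely on THY-Tau22 basal replicate 2, which also had the GC relation of -0.60 and the choroid plexus sum of 1316 CPM: the median was -0.06 without that library and -0.23 without THY-Tau22 basal replicate 1, and -0.06 without WT basal replicate 2, the library with the highest member share. After correction of each library for GC content and length the median was -0.12, and with the choroid plexus score as a covariate it was -0.08, with 0 members called in both fits.

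Trained WT mice were compared with WT in the home cage to see what spatial training changes. Ribosomal protein genes were higher after training: 16 of 81 members rose and 0 fell, against 5.35% of all 16820 genes called higher and 3.05% called lower. The median log2 fold change was 0.29 over the members and -0.00 over all genes, and 78 members were positive. The rise held for both subunits, with 7 of 48 large-subunit genes (median 0.28) and 9 of 33 small-subunit genes (median 0.30) called. An unadjusted p under 0.05 in this direction was reached by 59 members, against 15.4% of all genes, and WT VEH lay above every WT VEH_HC library for 54 members, against 23.0% of all genes.

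Rps27l, which p53 is known to induce, changed most among members with at least 100 counts. Its level was 3.53, 4.21 and 4.36 CPM in WT VEH_HC and 5.73 and 6.33 CPM in WT VEH, without overlap (log2 fold change 0.58 ± 0.13, adjusted p = 0.029 by edgeR). Rps24, a small-subunit protein mutated in Diamond-Blackfan anemia, was 35.2, 36.1 and 47.3 CPM in the home cage and 57.5 and 52.3 CPM after training (0.47 ± 0.12, adjusted p = 0.0353). For both genes the groups were apart, and for Rps24 the WT VEH_HC replicate 3 library came nearest to the trained ones. Rps27 (0.46), Rps12 (0.46), Rpl34 (0.46) and Rps14 (0.43) followed, and the 16 called members spanned 0.25 to 0.58.

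Members with a known role outside or beside the ribosome core took part unevenly. Rps27a, translated as a fusion with ubiquitin, rose (0.43 ± 0.09, adjusted p = 0.0245), as did Rpsa, also known as a laminin receptor precursor (0.37 ± 0.09, adjusted p = 0.0303), and Rpl10, which is needed for the last step of large-subunit maturation (0.30 ± 0.08, adjusted p = 0.0491). Rpl5 and Rpl11, which with 5S RNA bind the p53 regulator Mdm2, had log2 fold changes of 0.35 and 0.33 and adjusted p values of 0.0638 and 0.0946. Rps6, the substrate of the S6 kinases, was 40.9, 35.8 and 46.3 CPM in WT VEH_HC and 51.4 and 49.6 CPM in WT VEH (0.30 ± 0.09, adjusted p = 0.063). The last 3 had groups that did not overlap but missed the adjusted threshold. Rpl22, an RNA-binding protein that also binds viral RNA, had 0.12 ± 0.08 (adjusted p = 0.353), with overlapping groups.

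The stalk proteins differed among themselves. Rplp1 rose from 254, 262 and 303 CPM to 337 and 375 CPM (0.38 ± 0.09, adjusted p = 0.0295). Rplp0, the stalk base, was 84.1, 80.6 and 92.3 CPM in the home cage and 101 and 103 CPM after training (0.25 ± 0.08, adjusted p = 0.0636). Rplp2, the partner of Rplp1, was 98.1, 90.2 and 106 CPM in the home cage and 103 and 106 CPM after training, with overlap (0.09 ± 0.07, adjusted p = 0.426). Rplp0 is also known as 36B4 and was a reference gene for the quantitative PCR of the study. Its log2 fold change in the other comparisons was -0.15 in THY-Tau22 basal, -0.09 in TAU VEH and -0.13 in TAU MOL against WT VEH, and -0.03 in TAU MOL against TAU VEH, with adjusted p from 0.466 to 0.994.

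Only 3 tested members were negative. Rps4y2 was 21.0, 12.9 and 20.0 CPM in WT VEH_HC and 13.4 and 15.6 CPM in WT VEH (-0.31 ± 0.19, adjusted p = 0.312), with overlap. RefSeq lists this gene under the name Rps4l as a transcribed pseudogene on chromosome 6, and it is counted here among the small-subunit genes by its name only. Rpl28 was 72.6, 69.5 and 81.8 CPM in the home cage and 70.4 and 76.7 CPM after training (-0.02 ± 0.08, adjusted p = 0.893), again with overlap. Rpl3l was the other, at 4 to 12 counts per library (-0.67 ± 0.52).

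**Figure D3:**
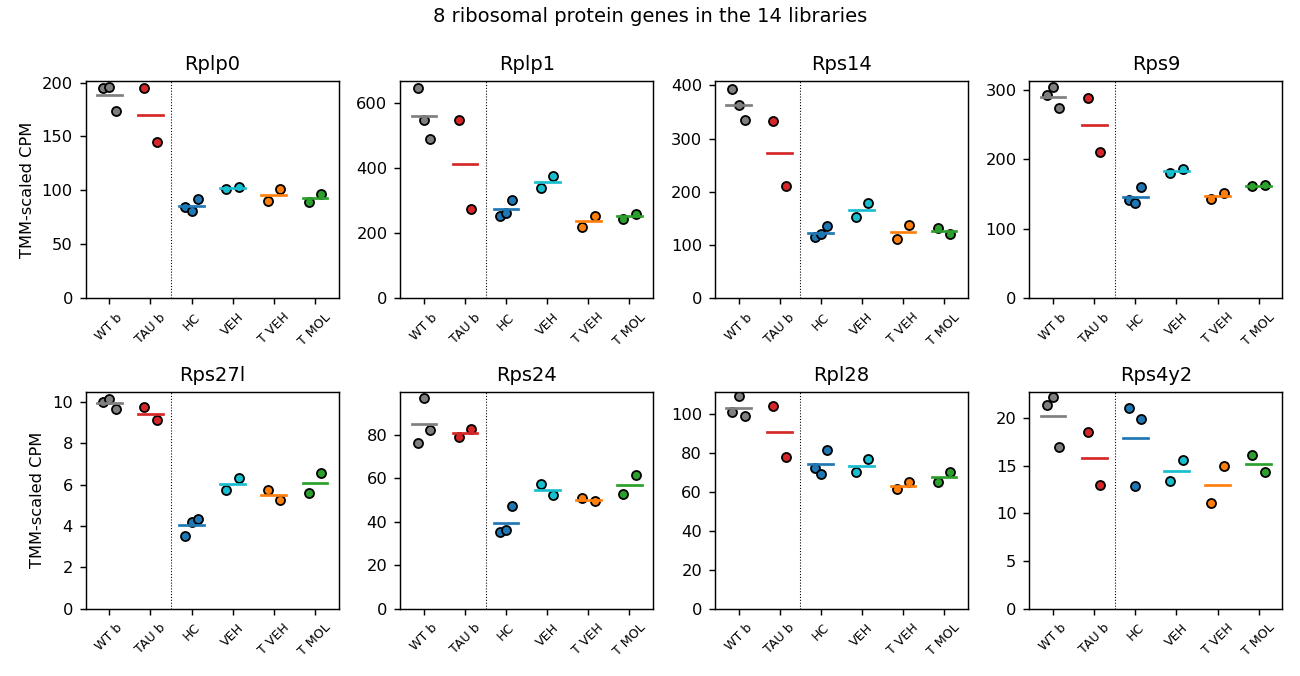
TMM-scaled CPM of 8 ribosomal protein genes in the 14 libraries, with 1 point per library and lines at the group means, and a dotted line between experiments (WT b and TAU b, WT basal and THY-Tau22 basal; HC, WT VEH_HC; VEH, WT VEH; T VEH and T MOL, TAU VEH and TAU MOL). Rps27l and Rps24 are lowest in the home cage, Rplp1, Rps14 and Rps9 stand lower in trained vehicle THY-Tau22 than in trained WT mice, and Rpl28 and Rps4y2 do not follow the others.

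These calls depended on the fit. A fit of only the 2 groups called 0 members (median 0.30), against 1.42% of all genes called higher. Leaving out WT VEH_HC replicate 1, 2 or 3 gave 0, 8 and 64 members called higher, against 2.12%, 3.92% and 10.7% of all genes. Without 1 library the medians of the members ran from 0.23 to 0.39, with 0.27 and 0.31 without WT VEH replicates 1 and 2. The choroid plexus moved with the members here. All 14 of its markers were called higher in WT VEH, with log2 fold changes from 1.53 to 4.84, and within WT VEH_HC the library with most of it, replicate 3, also had the highest ribosomal protein share. With the mean log2 CPM of those markers as a covariate, 0 members and 0 of all genes were called and the median of the members was -0.45. Microglia (2 of 10), blood (2 of 5) and astrocyte (1 of 8) markers were also called higher, and 0 neuron, oligodendrocyte or endothelial markers in either direction, and their part in the rise was not tested. In the basal table the library with most choroid plexus RNA, THY-Tau22 basal replicate 2 (mean log2 CPM of the markers 3.66), had the lowest ribosomal protein share. The other 4 lay close together in this value, from 2.19 to 2.49, too near to be ranked. WT basal replicate 2, with the highest share, had 2.49, against 2.45 in WT basal replicate 1 and 2.44 in THY-Tau22 basal replicate 1. After correction of each library for GC content and length 11 members were called higher after training, 10 of them among the 16, with a median of 0.27, while the calls over all genes went from 900 to 559 higher. Training and choroid plexus content go together in these libraries, and their parts in the rise cannot be told apart.

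**Figure D4:**
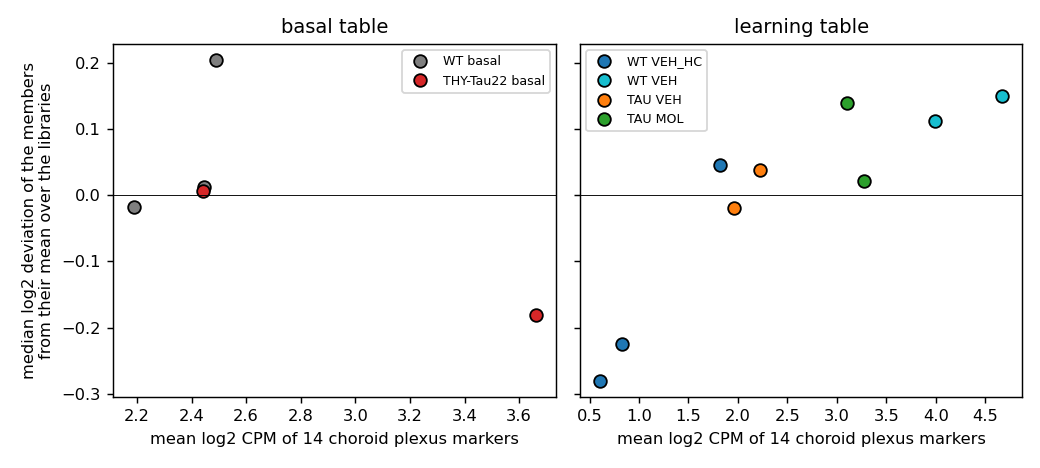
Median log2 deviation of the members from their mean over the libraries of a table, against the choroid plexus score (the log2 CPM averaged over 14 markers), with 1 point per library. In the learning table the 2 WT VEH libraries lie at upper right (0.15 and 0.11) and 2 WT VEH_HC libraries at lower left (-0.22 and -0.28). WT VEH_HC replicate 3 lies at 0.05, amid the trained THY-Tau22 libraries. In the basal table the library with the highest marker level lies lowest (-0.18).

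Trained vehicle THY-Tau22 mice were compared with trained WT. Of 81 members, 0 rose and 4 fell, 2 in each subunit, which is below the background, since 3.61% of all genes were called higher and 10.8% lower. The median log2 fold change was -0.12, against 0.00 for all genes, and 71 members were negative. At an unadjusted p under 0.05, 14 members were lower, against 16.7% of all genes. TAU VEH lay below WT VEH in every library for 53 members, against 29.4% of all genes. The shares of members past either threshold were thus near or below those of all genes.

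Rplp1 fell most, from 337 and 375 CPM in WT VEH to 219 and 254 CPM in TAU VEH (log2 fold change -0.59 ± 0.10, adjusted p = 0.0026 by edgeR). Rps14 fell from 153 and 178 CPM to 110.2 and 137 CPM (-0.42 ± 0.11, adjusted p = 0.0299). Rps9, which lies where mRNA enters the small subunit, fell from 180.2 and 186 CPM to 142 and 151 CPM (-0.32 ± 0.08, adjusted p = 0.0197). Rpl8, a protein next to the peptidyl transferase centre, fell from 236 and 262 CPM to 204 and 214 CPM (-0.25 ± 0.07, adjusted p = 0.0382). For all 4 genes the groups did not overlap, and 3 of them (Rplp1, Rps14 and Rps9) were among the 16 that were higher in WT VEH than in the home cage, a comparison that shares the WT VEH libraries. At the other end were Rps15a (0.06 ± 0.07) and Rps4x (0.05 ± 0.11), with overlapping groups.

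The choroid plexus markers again moved the same way as the members, with 13 of 14 called lower and log2 fold changes from -3.21 to -0.79, and the GC relation had opposite signs in the 2 groups. Of the neuron markers 6 of 10 were called lower, of the microglia markers 1 of 10 lower and of the astrocyte markers 2 of 8 higher, and none of the oligodendrocyte, endothelial or blood markers was called. Their part in these values was not tested. After correction of each library for GC content and length 2 members were lower, against 2.18% of all genes, and the median was -0.07. With the choroid plexus covariate 0 members and 0 of all genes were called and the median was 0.35. That value is again an extrapolation, since the groups did not overlap in the covariate. Without TMM scaling the median of all genes moved by 0.15 and that of the members to 0.03, so that the members were still below the median gene. In that fit 1 member was higher and 1 lower, against 15.3% and 6.06% of all genes. With 1 library left out, the median of the members ran from -0.15 to -0.09.

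CSP-TTK21 was compared with its carrier in trained THY-Tau22 mice. No member was called, and 0% of all genes were called in either direction by edgeR, while 1064 of 16820 genes, none of them a member, had an unadjusted p under 0.05. DESeq2 called 33 genes higher and 23 lower, again without a member. The median log2 fold change of the members was 0.07 against 0.01 for all genes, and 68 of 81 were positive. It was 0.14 without TAU MOL replicate 1 and 0.01 without TAU MOL replicate 2, 0.04 without TAU VEH replicate 1 and 0.10 without TAU VEH replicate 2, and -0.16 with the choroid plexus covariate. TAU MOL lay above TAU VEH in every library for 24 members, against 21.5% of all genes. The choroid plexus markers had a median of 1.13, with 0 of 14 called, and their part was not tested.

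Rps4y2 had the largest log2 fold change among members with at least 100 counts, at 11.1 and 14.9 CPM in TAU VEH and 16.2 and 14.3 CPM in TAU MOL (0.24 ± 0.21, adjusted p = 0.944), with overlap. Rps28 was 42.9 and 44.3 CPM in TAU VEH and 45.01 and 55.4 CPM in TAU MOL (0.20 ± 0.12, adjusted p = 0.884), without overlap. Rpl27 (-0.04 ± 0.09) and Rps18 (-0.04 ± 0.09) stood at the other end. The 4 genes that fell in TAU VEH were at 245 and 259.9 CPM (Rplp1), 132 and 121 CPM (Rps14), 161 and 162 CPM (Rps9), and 228 and 230.5 CPM (Rpl8) in TAU MOL. The first 2 overlapped with TAU VEH and the other 2 lay above it, with log2 fold changes of 0.09, 0.03, 0.14 and 0.13 and adjusted p of at least 0.857.

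Against trained WT, TAU MOL had 1 member lower and 0 higher, where 5.02% of all genes were called lower and 0.612% higher. The member was Rplp1 (-0.50 ± 0.10, adjusted p = 0.0177 by edgeR), and Rps14 had -0.39 ± 0.11 (adjusted p = 0.0741). The median of the members was -0.05 against 0.00 for all genes, and TAU MOL lay below WT VEH in every library for 27 members, against 26.9% of all genes. Without TAU MOL replicate 1 the median was 0.02, and without replicate 2 it was -0.12. Rps3a (0.13 ± 0.13) and Rpl23a (0.13 ± 0.14) had the largest positive values. Of the choroid plexus markers 8 of 14 were called lower (median -1.39), and of the neuron markers 3 of 10. Of the microglia markers 1 of 10 and of the endothelial markers 1 of 8 was lower, and of the astrocyte markers 1 of 8 higher. The part of these tissue differences was not tested. Rplp1 missed the threshold when any of the 4 libraries was left out. Both THY-Tau22 groups are set against the same WT VEH libraries, so their values stand side by side only.

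The trained THY-Tau22 groups can also be set beside home-cage WT, from which they differ in genotype, carrier and training at once. TAU VEH lay above every WT VEH_HC library for 22 of 81 members, against 27.1% of all genes, and TAU MOL for 31, against 26.1%. For example, Rps24 was 50.8 and 49.5 CPM in trained vehicle mice and 52.98 and 61.5 CPM in treated mice, above the 35.2 to 47.3 CPM of WT VEH_HC, whereas Rplp1 in these 4 libraries, at 219 to 259.9 CPM, did not exceed its home-cage range of 254 to 303 CPM.

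The THY-Tau22 difference in trained vehicle mice was then tested against that in untrained mice, in 1 fit of all 14 libraries. No member differed, at 0.129% of all 17026 genes called in either direction. An unadjusted p under 0.05 by edgeR was reached by 0 of 80 members, against 1325 of all 17026 genes. DESeq2 also called none of the members. The median of the members was 0.05 against 0.04 for all genes, and it was -0.04 without THY-Tau22 basal replicate 2, 0.20 without THY-Tau22 basal replicate 1 and -0.02 without WT basal replicate 2. Rplp1 was the lowest (-0.12 ± 0.31, adjusted p = 0.943) and Rps4y2 the highest (0.22 ± 0.31, adjusted p = 0.89). The basal and trained differences stood at -0.45 and -0.59 for Rplp1 and at -0.42 and -0.42 for Rps14, and with standard errors of 0.31 and 0.24 a difference of that size between them was not detectable.

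**Figure D5:**
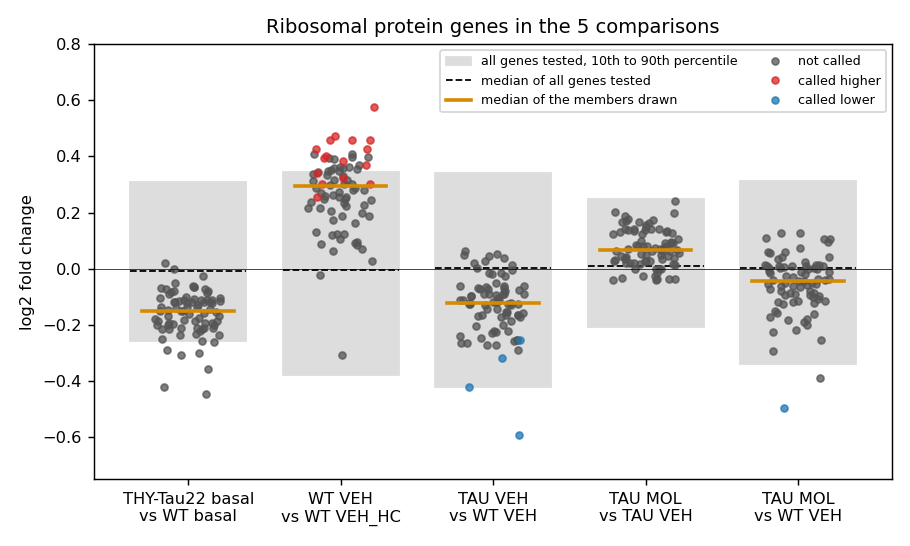
Log2 fold change of each ribosomal protein gene with at least 100 counts per library in the 5 comparisons, colored by whether it was called, with the median of the members drawn as an orange line, and the median and the 10th to 90th percentile of all genes tested as a dashed line and a grey band. The members lie together above the all-gene median in WT VEH vs WT VEH_HC (median 0.29 over all 81 tested) and below it in THY-Tau22 basal vs WT basal (-0.15) and TAU VEH vs WT VEH (-0.12), and most stay within the grey band.

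Across the 9 learning libraries most members moved together. Pearson's r between the log2 CPM of a member and the median of the other members was above 0.8 for 57 of 80 members with at least 100 counts, with a median of 0.92, a description over libraries that share depth, tissue content and groups. Rpl23 (0.99), Rpl31 (0.99), Rpl37 (0.98) and Rpl4 (0.98) followed the others most closely. The lowest were Rps4y2 (-0.13), Rpl28 (0.09), Rplp2 (0.27), Rpl18 (0.42), Rps2 (0.42), Rplp1 (0.43) and Rpl14 (0.43). The genes that stood apart thus included the 2 small acidic stalk proteins, and Rplp1 also had the most negative log2 fold change in each comparison of THY-Tau22 with WT.

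Paralog pairs were compared as the share of the second gene in the sum of both, each per kilobase of transcript. Rps27l held 5.80% to 8.80% of the Rps27 and Rps27l level in the 14 libraries. Rpl36al held 21.6% to 37.1% of the level of its pair with Rpl36a, with 31.3% to 37.1% in WT VEH_HC and 28.5% to 30.3% in WT VEH, without overlap. Rps4y2 held 15.9% to 22.9% of its pair with the X-linked Rps4x in WT VEH_HC and 11.8% to 14.6% in WT VEH, again without overlap. The log2 fold changes after training were 0.36 ± 0.14 for Rpl36a and 0.09 ± 0.11 for Rpl36al, and 0.34 ± 0.10 for Rps4x and -0.31 ± 0.19 for Rps4y2, and none of these 4 genes passed the adjusted threshold. Rpl3l and Rpl39l held at most 0.433% and 1.15% of their pairs and were close to absent.

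Features that the names do not use were set beside the changes. Among the members with at least 100 counts and an annotated transcript (n = 79), the log2 fold change fell with GC content, with a Spearman rho of -0.33 in THY-Tau22 basal, -0.36 in WT VEH against WT VEH_HC, -0.41 in TAU VEH and -0.46 in TAU MOL against WT VEH, and of -0.01 in TAU MOL against TAU VEH. With transcript length the rho was 0.25, 0.01, 0.33 and 0.07 in the first 4 of these comparisons and -0.39 in TAU MOL against TAU VEH. These values share libraries and describe members that are not independent. The share of copied stretches did not separate the members: after training the median was 0.34 for 24 members with under 50% and 0.27 for 55 with more, and in TAU VEH -0.14 and -0.12. Small nucleolar RNA genes, which guide the modification of ribosomal RNA, lie inside 30 members (58 such genes), and the median after training was 0.31 for these hosts and 0.27 for the other 50. The 13 members with a C-start tract had a median of 0.29, and 45 tested members whose listed starts lack it 0.30, with 1 and 11 members called. In TAU VEH against WT VEH these medians were -0.18 and -0.12, with 0 and 1 called.

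Genes that belong to the ribosome or its making, but not to the name rule, were described by the same counts. Of 5 tested components outside the name rule, 1 was higher after training, Rpl7l1 (0.33 ± 0.07, adjusted p = 0.0208 by edgeR), a biogenesis factor related to Rpl7, while Gnb2l1, the ribosome scaffold also known as Rack1, had 0.25 ± 0.09 (adjusted p = 0.0871), and the list had a median of 0.25. Of 18 translation factors with TOP mRNAs, 1 was higher after training, Tpt1 (0.39 ± 0.11, adjusted p = 0.0442), with a list median of 0.12, and 1 lower in TAU VEH, the initiation factor subunit gene Eif3f (-0.31 ± 0.08, adjusted p = 0.0223), with a list median of -0.02. Of 28 biogenesis factors, 0 were called after training (median 0.06) and 1 was lower in TAU VEH, Tcof1 (-0.35 ± 0.08, adjusted p = 0.0126), a nucleolar factor for ribosomal RNA transcription (list median 0.03). Of 75 tested mitochondrial ribosomal protein genes, which serve another ribosome, 6 were higher after training (median 0.14) and 1 lower in TAU VEH (median -0.07). Beside these list counts, 5.35% of all genes were called higher after training and 10.8% lower in TAU VEH.

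Among 16 genes of mTORC1 and TOP control, 3 were higher and 1 lower after training, against 5.35% and 3.05% of all genes. The kinase gene Rps6kb1 (0.30 ± 0.07, adjusted p = 0.0312), the mTORC1 activator Rheb (0.36 ± 0.10, adjusted p = 0.046) and the cap-binding Eif4e (0.29 ± 0.08, adjusted p = 0.0476) rose. Mycn, a transcription factor of growth genes, fell (-0.49 ± 0.12, adjusted p = 0.0364), and the list median was -0.09. In TAU VEH 4 genes of this list fell: Eif4ebp2 (-0.48 ± 0.09, adjusted p = 0.00558), the main neuronal repressor of Eif4e, Larp1 (-0.36 ± 0.06, adjusted p = 0.00255), Tsc2, an inhibitor of Rheb (-0.34 ± 0.06, adjusted p = 0.00429), and Akt1 (-0.25 ± 0.06, adjusted p = 0.0182), with a list median of -0.11. Of all genes, 10.8% were called lower in TAU VEH. The list thus held activators and repressors among the genes that fell. No gene of these 5 lists was called in THY-Tau22 basal or in TAU MOL against TAU VEH. In the first, 0.00613% of all genes were called higher and 0.0184% lower, and in the second 0% in either direction. In TAU MOL against WT VEH 3 genes of these lists were lower, against 5.02% of all genes. They were Tsc2 (-0.30 ± 0.06, adjusted p = 0.0211 by edgeR), Larp1 (-0.27 ± 0.06, adjusted p = 0.0235) and the mitochondrial ribosomal protein gene Mrps12.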

How the data were processed

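RNA was measured in 14 libraries of dorsal hippocampus, 5 basal and 9 learning, grouped from the sample labels. The authors purified poly-A RNA, made unstranded TruSeq libraries, sequenced single-end reads of 50 bases, aligned them to mm9 with TopHat2 2.0.10 and Bowtie2 2.1.0, and used HTSeq 0.5.4p3 to count the uniquely aligned reads of each gene in an Ensembl annotation. They deposited these raw counts per gene, which all tests used, and beside them a normalized signal, in which the authors divided each library by a size factor after Anders and Huber, and which was read only to check the columns. Columns of fold changes and p-values from the authors' own comparisons were not used. The learning table held 138 blank lines, which were left out. Depth was 24693700 to 52180300 counts per library, and edgeR's common coefficient of variation came to 0.0840 for learning and 0.129 for basal libraries. The spread between mice, not counting error, thus limits most members. Counting error limits Rpl3l and Rpl39l, and in part Rps27l, at 139 to 291 counts per learning library.

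Each table was fitted whole with edgeR 4.0.16 in R 4.3.3 (quasi-likelihood F test, TMM factors, filterByExpr, Benjamini-Hochberg adjustment), the 9 learning libraries in 1 fit. Calls needed an adjusted p below 0.05 with a log2 fold change beyond 0.2 in either direction. The difference of the THY-Tau22 differences was fitted on all 14 libraries. The fits were tested on simulated counts. Log2 CPM used a prior count of 1 and the choroid plexus score a pseudocount of 0.05. Members named are the 2 largest increases and decreases per comparison among members with a mean of at least 100 counts, a list of members with known roles and paralogs, the 3 highest and lowest per kilobase, and members called against the majority, of which there were none. Other members named were chosen after their values were seen. Members and lists were chosen with earlier results of these data known. Transcripts and GC content came from GENCODE for NCBIM37 (mm9), in which 81 members were found, and start sequences from RefSeq for GRCm38.p6, read by gene name only. Replicate numbers did not pair libraries. Alternatives were DESeq2 1.42.0, its size factors in edgeR, library size alone, other filters, only the groups compared, a replicate block, no limit on the fold change, a loess correction for GC content and length (span 0.3), the choroid plexus score as a covariate, levels per kilobase of stretches found once in the genome, and leaving out each library. Figures used Python 3.11.15 and matplotlib 3.10.9.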

Additional observations from a re-analysis of the deposited data

How the results depend on the processing

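In WT VEH vs WT VEH_HC the 16 members called higher became 42 with DESeq2, 33 with library size alone and 57 without a low-count filter. These settings called 6.47%, 7.6% and 6.06% of all genes higher. The count was 0 with the choroid plexus covariate (0% of all genes) and 0 with only the groups compared (1.42%). Without 1 WT VEH_HC library it was 0 to 64, against 2.12% to 10.7% of all genes. Without either WT VEH library the median was 0.27 or 0.31. The filter left out, 1 member (Rps4y2) was called lower, against 4.3% of all genes, and 0 to 1 without 1 WT VEH_HC library. In TAU VEH vs WT VEH the 4 called lower became 1 with library size alone, 11 without a filter and 18 with only the groups compared. These settings called 6.06%, 7.8% and 13.9% of all genes lower. With library size alone 1 member was called higher, against 15.3% of all genes. After the GC content and length correction 2 were lower (2.18% of all genes), and with the choroid plexus covariate 0 (0%). Without 1 library the median of the members ran from -0.15 to -0.09. In TAU MOL vs WT VEH the 1 called lower became 3 with DESeq2, without a filter and with only the groups compared, and 0 after the GC correction, with the covariate or without any 1 library. Of all genes, DESeq2 called 6.3% lower in TAU MOL vs WT VEH, the fit without a filter 4.79% and that of only the groups compared 7.09%. With the replicate block the counts were 65 higher, 11 lower and 2 lower in these 3 comparisons, against 11.2%, 11.8% and 6.49% of all genes. In the other comparisons the replicate block called 0 members. The replicate numbers share only a number, since the correlation of same-numbered libraries ran from -0.16 to 0.24. The cause of these shifts was not tested, and fits with fewer libraries also have fewer residual degrees of freedom.

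Several member medians changed sign. With library size alone the median was 0.0258 in TAU VEH vs WT VEH and 0.08 in TAU MOL vs WT VEH (all genes 0.15 and 0.12). In TAU MOL vs WT VEH it was 0.02 without TAU MOL replicate 1, and in the difference of the THY-Tau22 differences -0.02 without WT basal replicate 2 and -0.04 without THY-Tau22 basal replicate 2. With the choroid plexus covariate the median was 0.35 in TAU VEH vs WT VEH, 0.21 in TAU MOL vs WT VEH, -0.16 in TAU MOL vs TAU VEH and -0.45 in WT VEH vs WT VEH_HC, where the log2 fold changes became -0.31 for Rpl13a, -0.16 for Rpl24, -0.28 for Rpl30, -0.25 for Rpl34, -0.23 for Rpl9, -0.0105 for Rplp1, -0.50 for Rps12, -0.45 for Rps24, -0.48 for Rps27, -0.24 for Rps27a, -0.32 for Rps3, -0.12 for Rps9 and -0.36 for Rpsa, with adjusted p of at least 0.96. No member was called in THY-Tau22 basal vs WT basal, TAU MOL vs TAU VEH or the difference of the THY-Tau22 differences under any alternative run. The covariate and the GC correction were not run for that difference. Per kilobase of stretches found once in the genome, the ratio of the 90th to the 10th percentile of the levels was 13.4 in the basal and 16.99 in the learning table. The order of the members by this measure had a Spearman rho of 0.53 and 0.58 with the order per kilobase of transcript. By it Rps27 was the highest in the learning table, at 48115 against 1659 for Rplp1, so the ranking of levels depended on the measure. Rps27 has only 1 such stretch. The measure divides all counts of a member, not only those from such stretches, so it overstates members with few of them. Depth limits Rpl3l and Rpl39l and in part Rps27l, and the spread among the few mice of a group limits the rest.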
